A study of Mus musculus with 8 samples.

Results

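The eicosanoid genes described here are the leukotriene B4 receptor gene Ltb4r1, the leukotriene synthesis genes Alox5, Alox5ap, Lta4h and Ltc4s, the prostaglandin synthesis genes Ptgs1, Ptgs2 and Ptges, and the prostaglandin E2 receptor genes Ptger2 and Ptger4. Probe sets were taken by gene symbol: 13 probe sets carried exactly 1 symbol from the list of 10 genes in the platform annotation and covered 8 of the genes. Another 2 probe sets, both for Ptgs1, were named only by the deposited probe set descriptions and were added, which gave 15 of 22690 probe sets and 9 genes. A further 2 probe sets were left out because their descriptions name Lta4h while the platform annotation assigns them to Dstyk. Alox5 is not analysed here. A probe set was tested when the detection algorithm called it Present on at least 2 of the 8 arrays, which 12 of the 15 did and 12832 of all probe sets.

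The samples were dendritic cells, the antigen-presenting cells that start T cell responses, grown from the bone marrow of male mice 9 weeks old. VDRmut cells came from mice whose vitamin D receptor lacks its DNA-binding domain, and VDRwt cells carried the intact receptor. The cells of each genotype were given VD3 and then TNFa (VD3+TNFa), TNFa alone, VD3 alone or neither (untreated), with 1 array per combination. VD3, the active hormone 1,25-dihydroxyvitamin D3, was used at 1e-06 M starting 30 min before the cytokine, and TNFa, an inflammatory cytokine that matures dendritic cells, acted for 4 h at 50 ng/ml, on day 7 of the culture. Cells of every group had been raised with growth factors that included dexamethasone, a synthetic glucocorticoid, and GM-CSF. Transcripts were measured on Affymetrix MOE430A arrays, and each value is a MAS5 signal, a linear brightness in arbitrary units, with a detection call (Present, Marginal or Absent).

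Eicosanoids are lipid mediators made from arachidonic acid that phospholipases free from membranes. Cyclooxygenases (the products of Ptgs1 and Ptgs2) turn it into prostaglandin H2, from which terminal synthases such as Ptges make prostaglandin E2, while 5-lipoxygenase (Alox5) with its helper protein FLAP (Alox5ap) makes leukotriene A4. Lta4h turns leukotriene A4 into leukotriene B4, a chemoattractant read by the receptor BLT1 (Ltb4r1), and Ltc4s joins it to glutathione to give leukotriene C4, the parent of the cysteinyl leukotrienes, which act in the migration of dendritic cells.

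Promoter windows of 300 bases (250 before and 50 after the annotated start) were taken from RefSeq on the GRCm38.p6 build and matched 9 of the 10 genes by symbol. Those of Ltb4r1, Ptgs1, Ptgs2 and Ptger4 are shown because these genes had the lower and the higher signals under TNFa and their windows held motif matches. Ltb4r1 lies at chr14:55765712-55766011 on the plus strand, Ptgs1 at chr2:36230176-36230475 on the plus strand, Ptgs2 at chr1:150099781-150100080 on the plus strand and Ptger4 at chr15:5244138-5244437 on the minus strand. Each sequence reads 5′ to 3′ along the gene, and capitals mark a motif match on either strand.
Ltb4r1: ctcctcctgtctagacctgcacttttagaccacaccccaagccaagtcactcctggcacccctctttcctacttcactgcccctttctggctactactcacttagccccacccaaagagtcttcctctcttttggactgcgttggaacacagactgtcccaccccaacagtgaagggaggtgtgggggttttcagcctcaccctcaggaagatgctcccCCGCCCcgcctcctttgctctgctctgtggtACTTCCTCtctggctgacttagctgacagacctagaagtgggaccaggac
Ptgs1: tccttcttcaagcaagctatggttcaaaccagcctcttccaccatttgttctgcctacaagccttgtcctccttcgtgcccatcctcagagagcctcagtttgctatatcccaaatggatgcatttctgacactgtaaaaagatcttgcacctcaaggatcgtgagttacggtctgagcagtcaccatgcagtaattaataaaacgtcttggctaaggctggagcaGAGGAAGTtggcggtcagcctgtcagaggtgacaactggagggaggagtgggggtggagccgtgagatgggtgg
Ptgs2: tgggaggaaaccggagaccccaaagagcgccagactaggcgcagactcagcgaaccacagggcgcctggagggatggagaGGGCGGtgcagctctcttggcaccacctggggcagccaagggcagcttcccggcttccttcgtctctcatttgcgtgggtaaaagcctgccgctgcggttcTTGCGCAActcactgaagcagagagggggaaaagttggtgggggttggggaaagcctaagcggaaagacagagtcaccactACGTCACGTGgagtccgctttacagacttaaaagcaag
Ptger4: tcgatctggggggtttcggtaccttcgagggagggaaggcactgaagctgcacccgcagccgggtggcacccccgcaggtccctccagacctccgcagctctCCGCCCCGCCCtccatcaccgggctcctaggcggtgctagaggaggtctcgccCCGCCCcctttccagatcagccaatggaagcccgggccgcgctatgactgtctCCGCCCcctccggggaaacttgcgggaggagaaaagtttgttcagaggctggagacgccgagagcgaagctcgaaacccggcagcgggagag

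The PU.1 motif, the site of a myeloid transcription factor searched as GAGGAAGT on both strands, was found at bases 251 to 258 of the Ltb4r1 window and 227 to 234 of the Ptgs1 window. It was in 2 of the 9 windows and in 3.2% of all 32851 promoters. The Ptgs2 window held the C/EBP palindrome TTGCGCAA at bases 182 to 189, which 0.18% of all promoters held. It also held a cAMP response element half-site (ACGTCA, 7.51% of promoters) at bases 263 to 268, overlapping an E-box (CACGTG, 7.15% of promoters) at bases 267 to 272. The Sp1 box GGGCGG was in 5 of the 9 windows and 35.66% of all promoters, and its 4 matches in Ptger4 included an overlapping pair. No window held the NF-kB consensus (4.51% of promoters), the AP-1 site TGANTCA (7.81%) or the vitamin D response element of the DR3 type (0.04%). The motifs were chosen with the windows in view, so the matches only describe these stretches.

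The arrays had 46.45% to 51.54% of probe sets called Present. All 10 dendritic cell markers looked for, among them Itgax, Cd74, Flt3 and Cd86, were Present on at least 2 arrays, while of 4 T cell markers Cd3e, Cd3g and Cd4 were Present on none and Cd8b1 on 1. Of 4 B cell markers Cd79a, Cd79b and Pax5 were Present on none and Ms4a1 on 3. The Vdr probe set was called Present only on the VDRwt VD3 array, with signals of 14.4 to 71.6 on the VDRmut arrays and 51.9 to 253.3 on the VDRwt arrays, and whether it lies in the deleted stretch is not given in the sources used here. Cyp24a1, a standard target of the receptor, was Absent on all 8 arrays at 20.6 to 56.9, also where VD3 was given. The 18S ribosomal RNA probe set of the 5′ end read 6847 and 9028 on the VDRmut and VDRwt TNFa arrays and 3.5 to 224 on the other 6. That of the 3′ end read 7129 and 8511 on the TNFa arrays, 1121 in VDRwt VD3+TNFa cells, and between 50.5 and 227 in the remaining 5 samples. The ratio of 5′ to 3′ actin signal, a sign of RNA integrity, was 0.444 on the VDRmut untreated array, 0.449 on the VDRmut VD3+TNFa array and 0.781 to 0.889 elsewhere. No label states that separate cultures were used, so the p-values below reflect the scatter among these 8 arrays alone, and that scatter may be technical.

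**Figure D1:**
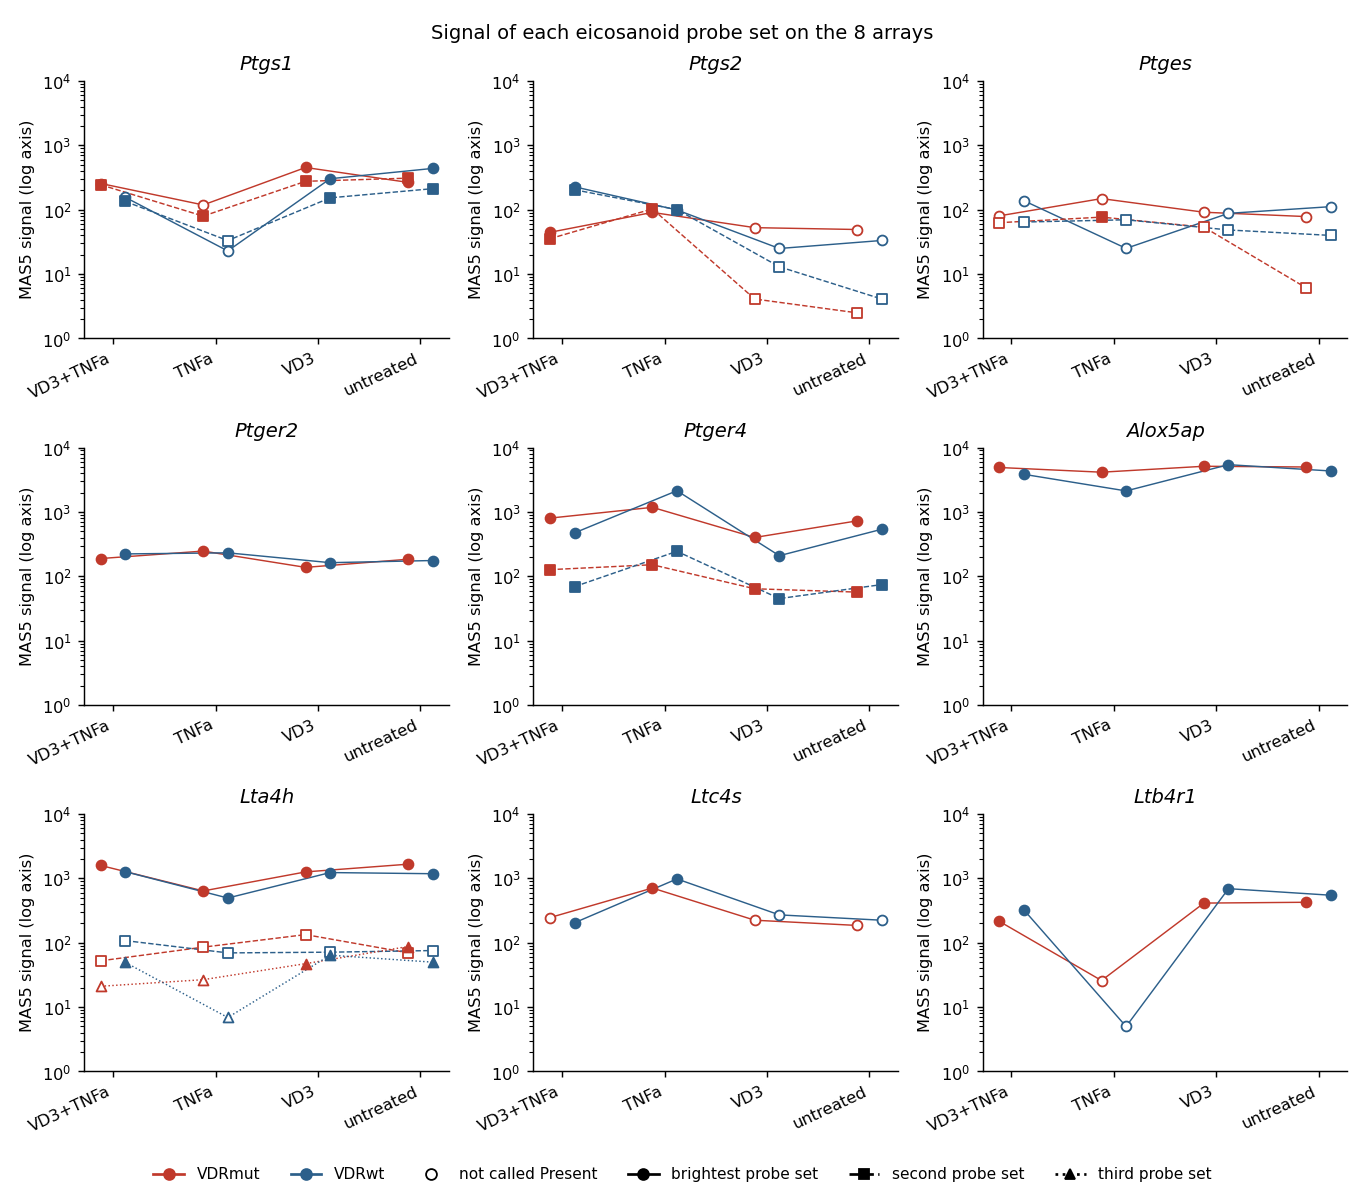
Signals of all 15 probe sets on the 8 arrays, in 1 panel per gene, with MAS5 signal on a log axis and the treatments across (VDRmut in red, VDRwt in blue, open symbols where the call was not Present). Ltb4r1 and Ptgs1 dip in TNFa cells, Ptgs2 and Ltc4s are higher there, and Alox5ap is Present on every array.

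TNFa given alone was set against no treatment, with the 2 genotypes as the replicates. Ltb4r1, the brightest Lta4h probe set and both Ptgs1 probe sets were lower in TNFa cells, and Ltc4s and 1 of 2 probe sets each of Ptgs2 and Ptger4 were higher. In limma's fit over all 12832 probe sets with Benjamini-Hochberg adjustment, 7 of the 12 tested probe sets passed an adjusted p of 0.05, 3 higher and 4 lower. Over all probe sets 11.1% passed, 5.66% higher and 5.39% lower. The median log2 change was -0.12 over the 12 and 0.04 over all probe sets. The changes ran the same way in both genotypes for 12 of 12, against 66.6% of all probe sets. Ltc4s and both Ptgs2 probe sets were Present only on arrays of TNFa-treated cells, and met the Present filter through those. Ltb4r1 and Ptgs1 (1423414_at) were Absent on both TNFa arrays and met it through other arrays. The direction of such calls is thus partly set by the filter.

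Ltb4r1 encodes BLT1, the high-affinity receptor for leukotriene B4 that draws leukocytes to inflamed tissue. Its signals in TNFa cells were 25.9 in VDRmut and 5.0 in VDRwt, both Absent, against 426 and 548 in untreated cells, both Present. The groups lay far apart in both genotypes. The log2 change was -5.41 ± 0.64 (limma SE, adjusted p = 0.00214), or 42.5-fold lower, a size that rests on TNFa signals called Absent. With signals under 50 raised to 50 the log2 change was -3.27. Within a genotype the log2 difference was -4.04 in VDRmut and -6.78 in VDRwt, where the lower value rests on a signal that was Absent.

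Cyclooxygenase 1, the form that most cells make at rest, is encoded by Ptgs1. The brighter probe set (1423414_at) read 118.7 and 22.9 in VDRmut and VDRwt TNFa cells, both Absent, against 266 and 438 in untreated cells. The other probe set (1436448_a_at) read 79.6, Present, and 33.2, Absent, in TNFa cells, against 309.7 and 213 in untreated cells. Neither probe set had a TNFa signal as high as its lowest untreated signal. Their log2 changes were -2.71 ± 0.56 (limma adjusted p = 0.017, 6.55-fold lower, from Absent TNFa signals) and -2.32 ± 0.26 (adjusted p = 0.00187, 4.99-fold lower).

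Lta4h encodes the hydrolase that makes leukotriene B4. Its brightest probe set (1434790_a_at) was Present on all arrays and read 639 in VDRmut and 496 in VDRwt TNFa cells, against 1663 and 1183 in untreated cells. Both TNFa signals lay below both untreated ones, with a log2 change of -1.32 ± 0.20 (limma adjusted p = 0.00545), or 2.49-fold lower. A dimmer probe set (1426807_at) read 26.7 and 6.9, both Absent, in TNFa cells, against 87.4 and 50.0 in untreated cells, and did not pass (log2 change -2.28 ± 0.68, adjusted p = 0.0655). The remaining one (1453528_at) was Absent on all 8 arrays at 52.5 to 133.9 and was not tested.

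Alox5ap, whose product FLAP presents arachidonic acid to 5-lipoxygenase, was Present on every array. It read 4139.6 in VDRmut and 2118 in VDRwt TNFa cells, against 4987 and 4324 in untreated cells. The TNFa signals were the lower ones in both genotypes, and the change missed the threshold (log2 change -0.65 ± 0.26, limma adjusted p = 0.147).

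Ltc4s encodes leukotriene C4 synthase, a membrane enzyme of mast cells, eosinophils and other myeloid cells. Its signals were 709 in VDRmut and 982 in VDRwt TNFa cells, both Present, against 186 and 224 in untreated cells, both Absent. The groups did not overlap. The log2 change was 2.03 ± 0.24 (limma adjusted p = 0.00226), 4.09-fold higher than the Absent untreated signals.

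Ptgs2 encodes cyclooxygenase 2, the inducible form. One probe set (1417262_at) read 103.1 in VDRmut and 100.6 in VDRwt TNFa cells, both Present, against 2.5 and 4.1 in untreated cells, both Absent. The brighter one (1417263_at) read 90.9 and 99.3, both Present, in TNFa cells, against 49.3 and 33.3 in untreated cells, both Absent. Both probe sets thus were detected only in the TNFa cells of this pair of groups, but their changes differed in size. The log2 change was 4.99 ± 0.66 (limma adjusted p = 0.00307) by 1417262_at and 1.23 ± 0.69 (adjusted p = 0.292) by 1417263_at. The former was 17.5-fold higher once the Absent signals were raised to each array's lowest Present signal.

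Ptges encodes the inducible prostaglandin E synthase. Of its probe sets, 1449449_at was Present only in VDRmut TNFa cells, at 76.8, and read 69.8 in VDRwt TNFa cells, against 6.1 and 39.9 in VDRmut and VDRwt untreated cells. The other (1449450_at) was Absent on all arrays at 25.1 to 149. Neither was tested.

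The receptors EP4 (Ptger4) and EP2 (Ptger2) both raise cAMP when they bind prostaglandin E2. The brighter Ptger4 probe set (1424208_at) read 1177 in VDRmut and 2133 in VDRwt TNFa cells, against 726 and 537 in untreated cells, with no overlap. Its log2 change of 1.34 ± 0.38 missed the threshold (limma adjusted p = 0.0559). The other (1421073_a_at) read 151 and 244 in TNFa cells, against 56.7 and 74.2 in untreated cells, and passed (log2 change 1.57 ± 0.40, adjusted p = 0.0389, 2.96-fold). Every one of these signals was Present. The call by 1421073_a_at was lost on leaving out 5 of the 8 arrays in turn, with adjusted p between 0.0352 and 0.301. Ptger2 read 246 and 231 in TNFa cells, against 184 and 176 in untreated cells, all Present, and did not pass (log2 change 0.41 ± 0.24, adjusted p = 0.308).

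Without the VDRwt TNFa array 4 of the probe sets passed rather than 7, and 365 rather than 1418 of all probe sets. The probe sets of Ltb4r1, Ltc4s, Ptgs1 (1436448_a_at) and Ptgs2 (1417262_at) passed on leaving out any of the 8 arrays, but each lost its call under another setting. With signals under 50 raised to 50, the log2 change of Ptgs2 (1417262_at) was 1.03 (limma adjusted p = 0.391). With a single TNFa effect for cells with and without VD3, the adjusted p was 0.122 for Ltb4r1, 0.276 for Ltc4s, 0.18 for Ptgs1 (1436448_a_at) and 0.369 for Lta4h (1434790_a_at). Scan days are recorded for the VDRwt arrays only, where TNFa and untreated were scanned on different days. In the scan day block the VDRmut arrays were coded with the day of the untreated VDRwt array. The block then marks only TNFa-treated VDRwt cells, so it cannot adjust for scan day apart from a genotype difference in the TNFa effect. With it 5 passed in limma's fit (Ptgs1 by 1423414_at, at an adjusted p of 0.118, and Ptger4, at 0.162, did not).

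Markers of other leukocytes moved in the same comparison, in which 11.8% of the 7331 genes tested passed in limma's fit (median log2 change -0.004). The summed signal of 10 neutrophil markers was 13180.3 and 3565 in VDRmut and VDRwt TNFa cells, against 31687 and 10480.0 in untreated cells. Of the 9 tested, 7 fell (S100a8, S100a9, Ngp, Ltf, Lcn2, Cd177 and Mmp8), with a median log2 change of -1.46, and Elane was Present on no array. Camp and Mpo did not pass and were lower in VDRmut and higher in VDRwt TNFa cells. Of 3 tested eosinophil markers Epx and Siglecf fell, and Prg2, which did not pass, was lower in VDRmut and higher in VDRwt TNFa cells. The eosinophil list summed to 480.3 and 549 in TNFa cells, against 1533 and 711 in untreated cells. Of 7 macrophage markers 4 fell (Adgre1, Mrc1, Mertk and Fcgr1). Cd14 was higher in both genotypes without passing, at 2917 and 1760 in TNFa cells, against 907 and 1574 in untreated cells. Csf1r and Cd68 were slightly higher in VDRmut and lower in VDRwt TNFa cells. The macrophage list summed to 14169 and 9148 in TNFa cells, against 14739 and 14141 in untreated cells. Of 10 dendritic cell markers Cd83, Cd86 and Flt3 rose (log2 changes 2.83, 2.05 and 1.37) and Itgax fell (-1.88), with sums of 43021 and 39833 in TNFa cells, against 34277 and 36464 in untreated cells. The summed signal of 11 mast cell and basophil markers was 1253 and 1828 in TNFa cells, against 1032 and 628 in untreated cells. Only Cpa3 of these passed, higher by 1.80 (log2, adjusted p = 0.0112), and 7 of the 11 were Present on no array (Cma1, Tpsb2, Tpsab1, Mcpt4, Ms4a2, Hdc and Fcer1a). The part of these cells, and of the 18S signal on the TNFa arrays, in the changes of the eicosanoid genes was not tested. Fewer cells of a type and less RNA per cell cannot be told apart in these bulk samples.

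With VD3 on both sides, VD3+TNFa cells were compared with VD3 cells. None of the 12 probe sets passed in limma's fit, against 0.803% of all probe sets. An unadjusted p under 0.05 was reached by 2 of the 12 and by 2859 of all 12832. The 5′ 18S signals here were 58.2 and 224 in VD3+TNFa cells and 32.7 and 72.6 in VD3 cells.

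Ptgs2 signals by 1417262_at were 35.5 in VDRmut and 204.4 in VDRwt VD3+TNFa cells, both Present, against 4.1 and 13.0 in VD3 cells, both Absent. These groups did not overlap, and the log2 change of 3.54 ± 0.66 had a limma adjusted p of 0.053. The fold was 8.15 with Absent signals raised to the array's lowest Present signal where that was higher. By 1417263_at the signals were 44.6 and 227 in VD3+TNFa cells, against 52.7 and 25.0 in VD3 cells, so the groups overlapped (log2 change 1.47 ± 0.69, adjusted p = 0.244). The brighter Ptger4 probe set read 801 and 472 in VD3+TNFa cells, against 401 and 209 in VD3 cells (log2 change 1.09 ± 0.38, adjusted p = 0.148). Every VD3+TNFa signal of that probe set lay above both VD3 signals.

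No change of the other genes passed either. Ltb4r1 was Present on all 4 arrays, at 216 and 327 in VDRmut and VDRwt VD3+TNFa cells, against 414 and 693 in VD3 cells. Both VD3+TNFa signals were the lower ones, with a log2 change of -1.01 ± 0.64 (limma adjusted p = 0.377). Ltc4s read 246 and 205 in VD3+TNFa cells, against 224 and 271 in VD3 cells, and was Present on only the VDRwt VD3+TNFa array of the 4. Lta4h (1434790_a_at) read 1588 and 1271 in VD3+TNFa cells, against 1263 and 1233 in VD3 cells. The log2 changes were -0.13 ± 0.24 for Ltc4s and 0.19 ± 0.20 for Lta4h.

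Ptgs1 by 1436448_a_at read 244 and 134.5 in VD3+TNFa cells, against 277 and 153 in VD3 cells (log2 change -0.18 ± 0.26). By 1423414_at it read 256 and 156 in VD3+TNFa cells, against 454 and 304 in VD3 cells (-0.89 ± 0.56, adjusted p = 0.372). Alox5ap read 4899 and 3841 in VD3+TNFa cells, against 5118 and 5419 in VD3 cells, and Ptger2 read 189 and 222 in VD3+TNFa cells, against 137.4 and 163 in VD3 cells. The VD3+TNFa signals of Alox5ap and Ptgs1 were the lower ones in each genotype and those of Ptger2 the higher ones. Over the 12 probe sets the direction was the same in both genotypes for 10, against 68.6% of all probe sets.

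**Figure D2:**
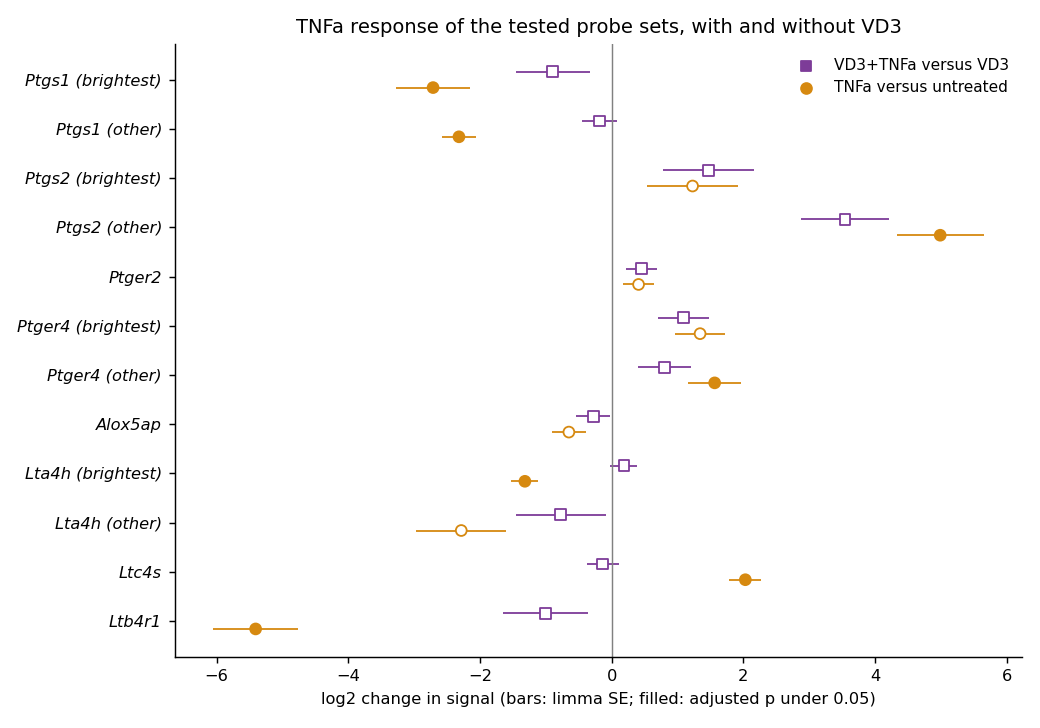
Fitted log2 change in signal for the 12 tested probe sets, VD3+TNFa versus VD3 (squares) and TNFa versus untreated (circles), with limma standard errors as bars and filled symbols where the adjusted p was under 0.05. All 7 filled symbols are circles, and the Ltb4r1, Ptgs1, Lta4h and Ltc4s squares lie nearer 0 than their circles.

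VD3+TNFa cells were next set against TNFa cells, a comparison that shares the TNFa arrays with the first one, so opposite signs in the 2 comparisons carry no separate weight. In limma's fit 4 of 12 probe sets passed, 3 higher and 1 lower, against 6.97% of all probe sets (3.4% higher and 3.57% lower). The median log2 change was 0.32 over the 12 and -0.03 over all probe sets. The direction was the same in both genotypes for 9 of 12, against 68.8% of all.

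Ltb4r1 was detected in VD3+TNFa cells and not in TNFa cells. It had a log2 change of 4.55 ± 0.64 (limma adjusted p = 0.00662, 23.4-fold higher than the Absent TNFa signals). It was higher in both genotypes, by 3.06 in VDRmut and 6.03 in VDRwt (log2). Lta4h (1434790_a_at) was higher by 1.34 ± 0.20 (log2, adjusted p = 0.00776), a step of 1.31 in VDRmut and 1.36 in VDRwt. The dimmer Lta4h probe set (1426807_at) read 21.1 and 49.4 in VDRmut and VDRwt VD3+TNFa cells, against 26.7 and 6.9 in TNFa cells, so it overlapped and went opposite ways in the genotypes (1.25 ± 0.68, adjusted p = 0.317). Ptgs1 (1436448_a_at) was higher by 1.82 ± 0.26 (log2, adjusted p = 0.00693), and by 1.94 ± 0.56 with 1423414_at, which did not pass (adjusted p = 0.0756). Ltc4s was lower, with a log2 change of -1.89 ± 0.24 (adjusted p = 0.00501), a difference of -1.53 in VDRmut and -2.26 in VDRwt. Apart from that dimmer Lta4h probe set, the VD3+TNFa signals of these probe sets lay outside the range of the TNFa signals.

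Ptger4 was lower in both genotypes without passing, with log2 changes of -1.37 ± 0.38 (1424208_at, limma adjusted p = 0.0677) and -1.04 ± 0.40 (1421073_a_at, adjusted p = 0.164). Ptgs2 went opposite ways in the 2 genotypes, by -1.54 and -1.03 in VDRmut and by 1.02 and 1.19 in VDRwt (log2, 1417262_at and 1417263_at). Its fitted changes were near 0 with wide errors (-0.26 ± 0.66 and 0.08 ± 0.69). The VDRmut VD3+TNFa array had a low actin ratio (0.449). Ptger2 changed by -0.22 ± 0.24 and Alox5ap by 0.55 ± 0.26, and neither passed.

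The neutrophil sums in this comparison were 20233 and 10456 in VDRmut and VDRwt VD3+TNFa cells, against 13180.3 and 3565 in TNFa cells. Of the 9 tested markers 6 rose, where 7.57% of all genes tested passed in either direction. Among those that did not pass, S100a8 was higher in both genotypes and Camp went opposite ways. Mpo was lower in both, at 154.3 and 119.0 in VD3+TNFa cells, against 175.9 and 166.3 in TNFa cells. Of 3 tested eosinophil markers Epx and Siglecf were higher, and of 4 tested mast cell and basophil markers Cpa3 was lower. Of 7 macrophage markers Fcgr1 and Mrc1 rose by 2.19 and 1.20 (log2), and Adgre1, Cd68 and Mertk were higher in both genotypes without passing. Csf1r and Cd14 were higher in VDRwt cells only, with Cd14 at 2364 in VDRmut VD3+TNFa cells, against 2917 in VDRmut TNFa cells. Of 10 dendritic cell markers Itgax rose by 1.66, while Cd83 and Flt3 had log2 changes of -2.10 and -1.33. What these cells, or the 18S signal that was highest in TNFa cells, contributed was not tested. In VDRwt both arrays were scanned on the same day but under different recorded fluidics protocols. The VDRwt VD3+TNFa array was the only VDRwt array with its protocol, and none is recorded for VDRmut. On leaving out arrays the count of 4 fell to 1 without VDRwt TNFa, to 1 without VDRwt VD3+TNFa and to 2 without VDRmut VD3+TNFa.

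**Figure D3:**
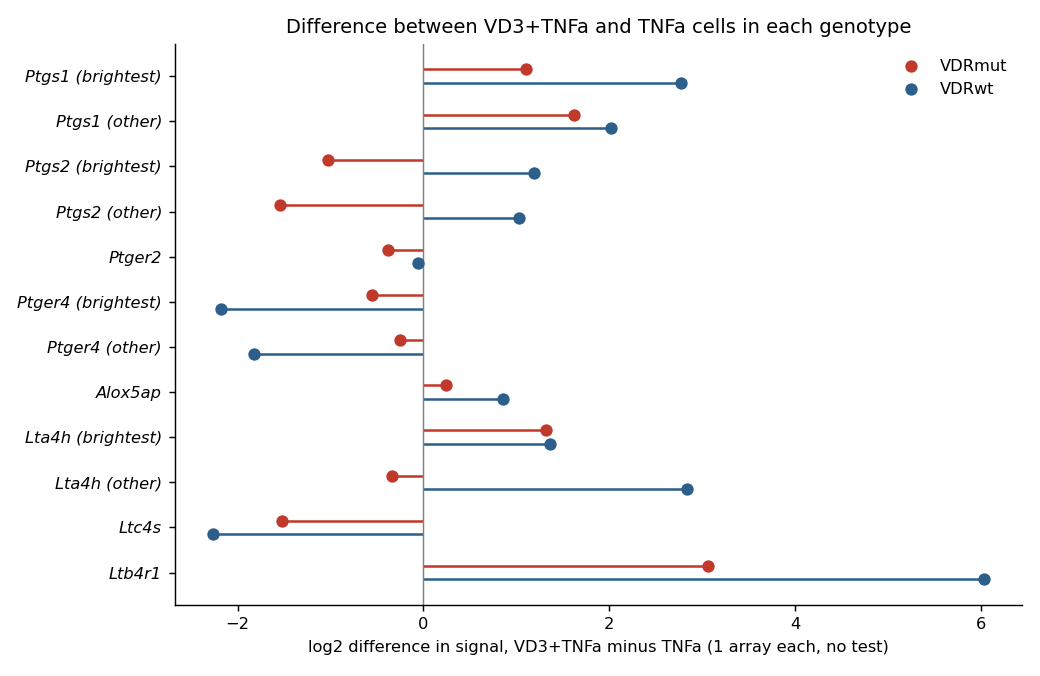
Log2 difference in signal between VD3+TNFa and TNFa cells for the 12 tested probe sets in VDRmut (red, upper of each pair) and VDRwt (blue), from 1 array each and with no test. Ltb4r1 is higher by 3.06 in VDRmut and 6.03 in VDRwt, and the Ptgs2 points lie on opposite sides of 0. The VDRmut VD3+TNFa array had a low actin ratio (0.449).

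Whether the TNFa change differed with VD3 was tested as the contrast of the 2 TNFa responses. In limma's fit 3 of 12 probe sets passed, 2 with a positive and 1 with a negative difference, against 1.77% of all probe sets (0.959% positive and 0.81% negative). The TNFa response was more positive with VD3 than without it for Ptgs1 (1436448_a_at, log2 difference 2.135 ± 0.37, adjusted p = 0.031) and Lta4h (1434790_a_at, 1.50 ± 0.29, adjusted p = 0.0423). It was more negative for Ltc4s (-2.17 ± 0.35, adjusted p = 0.0267). Ltb4r1 missed the threshold by this contrast (4.40 ± 0.91, adjusted p = 0.0501). None of the 12 passed on leaving out any 1 of VDRwt VD3, VDRwt VD3+TNFa, VDRmut untreated, VDRmut VD3 or VDRmut VD3+TNFa, and 1 passed without VDRwt TNFa. The Lta4h call was lost in all 5 other settings run, with adjusted p of 0.0506 (quantile normalization) to 0.207 (without the arrays of low actin ratio).

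VD3 alone against no treatment gave no call in limma's fit among the 12 or among all 12832 probe sets (0%), with 977 at an unadjusted p under 0.05, 1 of them among the 12. That one was Ptger4 (1424208_at), which read 401 in VDRmut and 209 in VDRwt VD3 cells, against 726 and 537 in untreated cells. The VD3 signals were the lower ones, with a log2 change of -1.11 ± 0.38 (adjusted p = 0.629). The other Ptger4 probe set read 63.9 and 45.0 in VD3 cells, against 56.7 and 74.2 in untreated cells, and so overlapped. Ltb4r1 read 414 and 693 in VD3 cells, against 426 and 548 in untreated cells, a log2 change of 0.15 ± 0.64. The direction was the same in both genotypes for 6 of 12 probe sets, against 56.6% of all.

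VDRmut cells were compared with VDRwt cells over the 4 matched treatments. No eicosanoid probe set passed in limma's fit, against 0.0623% of all probe sets (0.0546% higher and 0.00779% lower). An unadjusted p under 0.05 was reached by 2 of 12 and by 946 of all 12832. Ptgs1 (1436448_a_at) was the higher one in VDRmut in each of the 4 treatments, by a log2 change of 0.88 ± 0.19 (adjusted p = 0.367). Ptgs2 by 1417262_at was lower (-1.22 ± 0.47, adjusted p = 0.64), and the widest gap was in VD3+TNFa cells, where VDRmut minus VDRwt was -2.53 by 1417262_at and -2.35 by 1417263_at (log2). In TNFa cells the same gaps were 0.04 and -0.13. The actin ratio was 0.449 on the VDRmut VD3+TNFa array and 0.781 on the VDRwt VD3+TNFa array, and its part was not tested. Ltb4r1 differed by 0.17 ± 0.46. Of the 9 tested neutrophil markers 6 were higher in VDRmut cells (median log2 change 1.53), where 0.0955% of all genes tested passed.

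Both tests of whether a treatment effect depended on the receptor gave no call in limma's fit, among the 12 or among all probe sets (0% each). For the TNFa effect 619 probe sets had an unadjusted p under 0.05, 2 of them among the 12: Ptgs2 (1417263_at, -2.06 ± 0.73) and Ptgs1 (1423414_at, 1.61 ± 0.63), as log2 VDRmut effect minus VDRwt effect, both with adjusted p = 0.874. For the VD3 effect there were 390, with 3 among the 12: Lta4h (1426807_at, -2.21 ± 0.69) and Ptger4 (1421073_a_at, 1.23 ± 0.43, and 1424208_at, 1.06 ± 0.44), with adjusted p = 1. With 1 array per condition these tests leave 2 residual degrees of freedom.

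Other genes of the pathway were counted from 4 lists, each gene by its brightest probe set. In TNFa against untreated cells, 11.8% of the 7331 genes tested passed in limma's fit, with a median log2 change near 0 (-0.004).

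Of the arachidonate release genes 12 were tested, and 3 fell and none rose (median -0.42). Lpcat3, which puts arachidonate into phospholipids, read 275 and 211 in VDRmut and VDRwt TNFa cells, against 599 and 715 in untreated cells (log2 change -1.44 ± 0.23, adjusted p = 0.00626). Both other genes that fell were Pla2g6, a calcium-independent phospholipase (-1.59 ± 0.35, adjusted p = 0.0208), and Mgll, the monoacylglycerol lipase (-0.81 ± 0.22, adjusted p = 0.0441). Pla2g6 read 22.7, Absent, and 33.7, Present, in VDRmut and VDRwt TNFa cells, against 88.3 and 78.0 in untreated cells. With signals under 50 raised to 50 its log2 change was -0.73. Pla2g4a, the cytosolic phospholipase that releases arachidonate on activation, read 222 and 157 in TNFa cells, against 305 and 246 in untreated cells, and did not pass.

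Among 11 tested genes of lipoxygenases and leukotriene handling, 3 fell and none rose (median -0.49). Mgst2, a microsomal glutathione transferase that can make leukotriene C4, read 304, Present, and 113, Absent, in VDRmut and VDRwt TNFa cells, against 777 and 697 in untreated cells (log2 change -1.99 ± 0.42, adjusted p = 0.0184). Its change was thus opposite in sign to that of Ltc4s. Ptgr1, which inactivates leukotriene B4 and prostaglandins, read 544 and 299 in TNFa cells, against 866 and 1098 in untreated cells (-1.27 ± 0.30, adjusted p = 0.0276). Cotl1, an actin-binding protein that also binds 5-lipoxygenase, fell as well (-1.59 ± 0.21, adjusted p = 0.00287).

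The prostanoid synthases and catabolic enzymes had 7 genes tested, of which 1 rose and 1 fell (median 0.27). Thromboxane synthase, Tbxas1, read 157 and 133 in TNFa cells, against 386 and 390.0 in untreated cells (log2 change -1.42 ± 0.22, adjusted p = 0.00529). Hpgds, the hematopoietic prostaglandin D synthase, rose by 1.97 ± 0.54 (log2, adjusted p = 0.0471), with signals of 66.0 and 73.6 in VDRmut and VDRwt TNFa cells, against 33.2 and 9.5 in untreated cells, and was Present on only 1 of these 4 arrays. Of 7 tested other receptors only Cysltr1, a receptor for cysteinyl leukotrienes, passed. It read 84.7 and 43.5 in VDRmut and VDRwt TNFa cells, against 232 and 214 in untreated cells (-1.88 ± 0.30, adjusted p = 0.00645). On leaving out each of the 8 arrays in turn, the call was lost 7 times for Mgll, 6 times for Hpgds, 4 times each for Pla2g6 and Ptgr1, 3 times for Mgst2 and 1 time each for Lpcat3, Tbxas1 and Cysltr1. With the scan day block, which marks only TNFa-treated VDRwt cells, only Cotl1 of the 9 kept its call (limma adjusted p = 0.0254). The others had adjusted p of 0.051 (Tbxas1) to 0.228 (Hpgds).

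In VD3+TNFa against TNFa cells, where 7.57% of genes passed, 1 of 12 arachidonate release genes rose. Of 11 genes of lipoxygenases and leukotriene handling 3 rose, and no gene of the 4 lists fell. None of the 7 tested prostanoid genes or 7 tested other receptors passed. The median log2 changes were 0.34, 0.43, -0.48 and -0.21 in that order of lists. Whether these counts exceed the share over all genes was not tested. The 4 genes that rose were Mgst2 (2.11 ± 0.42, adjusted p = 0.021), Ptgr1 (1.27 ± 0.30, adjusted p = 0.0377), Lpcat3 (1.17 ± 0.23, adjusted p = 0.0199) and Cotl1 (0.86 ± 0.21, adjusted p = 0.0409), all log2 changes from limma. The VDRwt TNFa signal of Mgst2 was Absent. Each of these 4 calls was lost on leaving out some arrays, 3 of the 8 for Mgst2 and Lpcat3, 5 for Ptgr1 and 6 for Cotl1. No gene of the 4 lists passed in any of the other 6 comparisons.

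**Figure D4:**
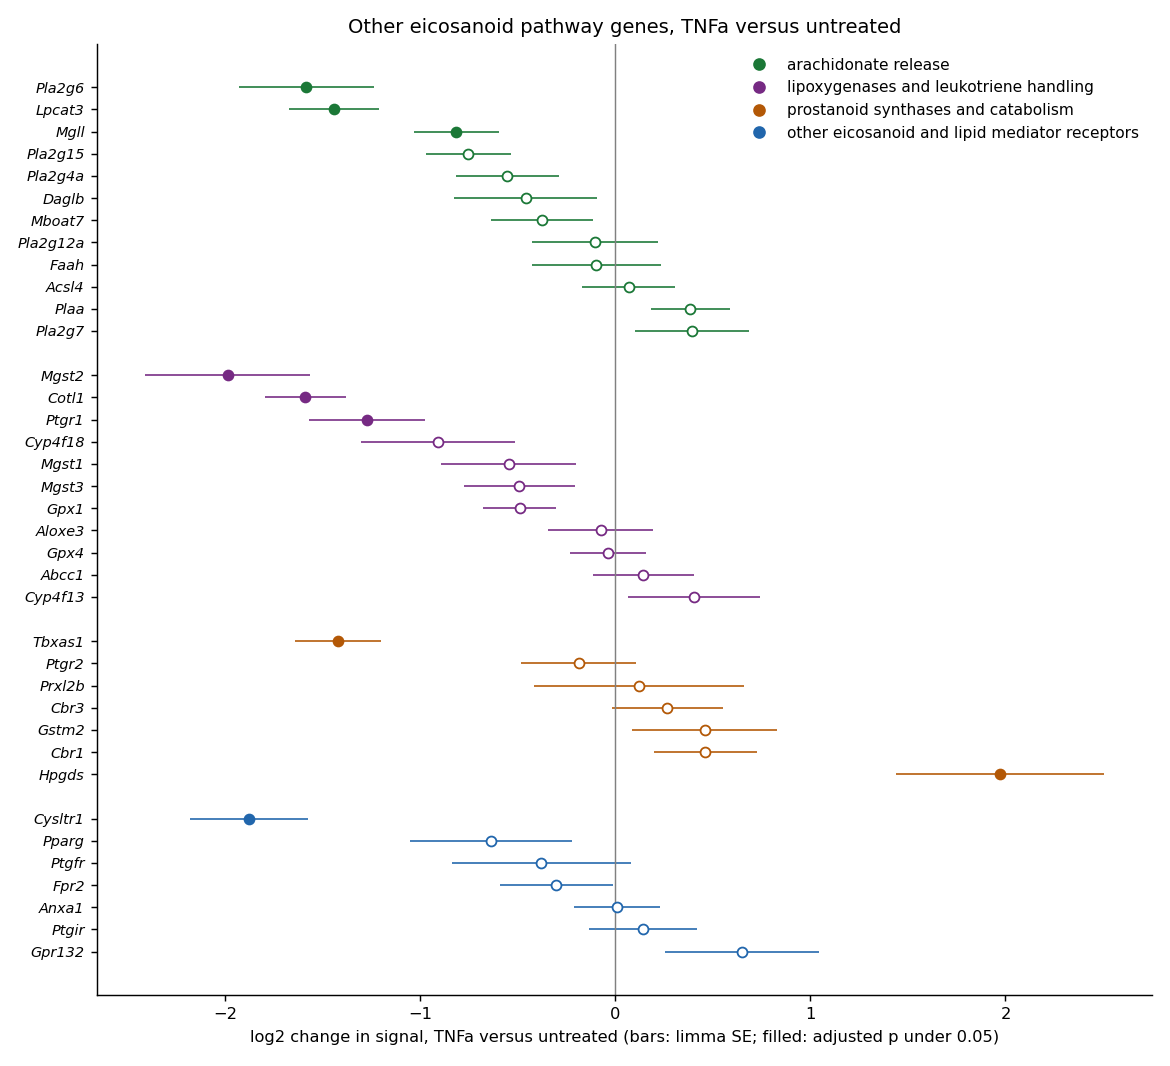
Fitted log2 change, TNFa versus untreated, of the tested genes of the 4 pathway lists, with limma standard errors as bars and filled points where the adjusted p was under 0.05. The 8 filled points left of 0 include Mgst2, Tbxas1 and Cysltr1, and Hpgds is the single filled point right of 0.

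The genes whose log2 signals followed Ltb4r1 most closely over the 8 arrays, among 7323 genes, were F7 (Pearson r = 0.996), Slfn1 (0.993), Naaa (0.991), Ldha (0.989) and Dab2 (0.988). F7, the gene of coagulation factor VII, read 543 in VDRmut and 233 in VDRwt TNFa cells, against 1596 and 2100 in untreated cells. For Ptgs2 (1417263_at) the closest were Lztfl1 (0.916), Ndufaf1 (0.912), Cds2 (0.909), Cdh11 (0.905) and Rpgr (0.901). The 8 points of each correlation share the same arrays and treatments, and the values are a description.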

How the data were processed

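The deposited tables give a signal intensity and a detection call per probe set, per the file headers, and the submitters' processing notes name MAS5, the authors' algorithm, without a version. Each array had a 2% trimmed mean of about 200.1. All arrays were brought to 1 trimmed mean, 3 signals at 0 were raised to 0.1, and log2 was taken. A series matrix held the same values within 0.05 and was not used further. Probe sets were named from the platform annotation (20393 with 1 symbol, 691 with several, 1606 with none), of which 20372 matched a RefSeq symbol. Control probe sets (64) and those Present on fewer than 2 arrays were left out of the tests.

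Groups came from the sample titles. Models with treatment (4 levels) and genotype, and with a genotype interaction, were estimated in R 4.3.3 with the limma package, 3.58.1 (lmFit, then eBayes with a trend). The estimated sizes of treatment contrasts were checked on simulated data with independent noise and no genotype or array effect. That check does not cover the calls made in the present data. Adjusted p-values are Benjamini-Hochberg over all tested probe sets, with a threshold of 0.05, and ± gives limma standard errors. Where no array of the dimmer group was Present, its signals were raised to each array's lowest Present signal where that was higher. Such folds rest on Absent signals and are not lower bounds. Within 1 genotype, differences have no test.

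Named were the 15 probe sets described above, up to 5 called genes per pathway list, and the 5 genes most like Ltb4r1 and Ptgs2; Pla2g4a was named in addition, after its values were seen. The genes, lists and markers were chosen with earlier results of these data known. Alternatives were a signal floor of 50, no Present filter, quantile normalization, a model with 1 TNFa effect, the other probe sets of a gene, and leaving out arrays. Other probe sets were tried only for genes of the 15 described probe sets, not for those of the pathway lists. Scan day was also set as a block, a term that marks only TNFa-treated VDRwt cells. The number of arrays limits the precision.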

Additional observations from a re-analysis of the deposited data

Results flagged for a closer look

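The test of whether the TNFa change differs with VD3 passed for 3 probe sets, and each is a difference between the TNFa response of cells given VD3 and that of cells not given it. The log2 difference was -2.17 for Ltc4s, 1.50 for Lta4h (1434790_a_at) and 2.135 for Ptgs1 (1436448_a_at), from limma's fit over all probe sets. Ltc4s was Present only on both TNFa arrays and the VDRwt VD3+TNFa array, so the size of its difference rests on Absent signals. On leaving out each of the 8 arrays in turn, the call was lost 6 times for Ltc4s, 7 times for Lta4h and 6 times for Ptgs1. Each difference rests on 2 arrays per treatment, and the neutrophil markers and the 18S signal described above moved with the TNFa arrays. Their part was not tested.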

How the results depend on the processing

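Counts below are of the 12 eicosanoid probe sets that passed in limma. For TNFa versus untreated the count of 7 became 4 with a signal floor of 50 and 1 with a single TNFa effect for cells with and without VD3, and leaving out 1 array gave 4 to 9. For VD3+TNFa versus VD3 the count of 0 became 1 with quantile normalization, 2 without both arrays of low actin ratio, 1 with the single TNFa effect, and 0 to 1 on leaving out 1 array. For VD3+TNFa versus TNFa the 4 became 1 with the floor of 50, and leaving out 1 array gave 1 to 6. For the VD3 by TNFa contrast the 3 became 0 with the floor of 50 and 0 with no Present filter, and leaving out 1 array gave 0 to 4. The other 4 comparisons gave 0 in every setting run. Over all probe sets, the TNFa count of 1418 was 512 with the floor, 341 with scan day as a block and 29 with the single TNFa effect, and the VD3+TNFa versus TNFa count of 894 was 96 with the floor and 578 with no filter. The VD3 by TNFa count of 227 was 10 with the floor, 56 with no filter, 136 with scan day and 144 without the low actin arrays. The cause of these shifts was not tested. A gene's other probe set turned the sign of 5 uncalled changes (log2): Lta4h to -0.77 in VD3+TNFa versus VD3, Ptgs1 to -0.32 and Ptgs2 to 1.19 in VD3 versus untreated, and Ptgs2 to -0.26 in VD3+TNFa versus TNFa and -1.45 in the VD3 by TNFa contrast. The TNFa by genotype test could not be fitted with scan day as a block, since the block stands for the same interaction. Neither genotype test could be fitted without the low actin arrays. The labels give no replicate numbers to pair arrays by, and since genotype is a term of the model the treatment differences are taken within genotype. Signals called Absent have no reliable size, which limits the values of Ltb4r1, Ltc4s and Ptgs2 on their dim side.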
